A study of Saccharomyces cerevisiae x Saccharomyces kudriavzevii with 6 samples.

Results

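Translation initiation, elongation and termination factors were followed as a group of 48 genes of the 5616 ORFs in the table. The members were chosen by ORF identifier as subunits of the initiation factors eIF1 to eIF5B, both forms of eIF5A, the poly(A) binding protein, elongation and release factors, the helicases Ded1 and Dbp1, and the Gcn1, Gcn2 and Gcn20 regulators. Of the 48, 47 had a row and 1, YFR009W, had none and was not analysed here, so not every factor listed was measured. The supplementary gene list of the study names 6 of them, namely *SUI1*, *TIF11*, *ANB1*, *TEF1*, *EFT1* and *EFT2*. The others are given by ORF identifier, since the sources used here pair no name or individual role with them.

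The values are log2 ratios of 12°C over 28°C from wine fermentations of the *S. cerevisiae* x *S. kudriavzevii* hybrid strains VIN7 and W27 in Tempranillo must, sampled at the beginning of the exponential phase, with no other treatment or genetic change named in the labels. Each strain had 3 dual-colour arrays (A, B and C), and each array compared a 12°C sample with a 28°C sample of 1 strain. Both strains are commercial allotriploid hybrids, so each stands for 1 genotype, and the spots carry S288c ORFs that can bind the cDNA of either parental allele. The labels call the arrays biological replicates, whereas the Methods give 2 fermentations per strain, so the p-values measure the spread between these arrays, part of which may be technical. The 12°C sample was in Cy5 on every array but VIN7 C, where the dyes were swapped. In W27, dye and temperature cannot be told apart.

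Protein synthesis starts when a small ribosomal subunit, loaded with initiator tRNA by eIF2, is brought to the capped mRNA by the eIF4 factors and scans for a start codon under the control of eIF1 and eIF1A. The factors eEF1A, eEF2 and, in fungi, eEF3 then drive elongation, eIF5A eases the formation of difficult peptide bonds, and the release factors end the chain. In yeast many of these genes are among the most highly expressed and are regulated together with growth, whereas the kinase Gcn2 lowers initiation when amino acids are scarce.

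On the VIN7 arrays the translation factor genes lay slightly below the other genes. On VIN7 A, 17 of 42 members were above 0 (40.5%, against 49.4% of all ORFs on that array), and the median member was at -0.18. On VIN7 B it was 15 of 39 (38.5% against 51.8%), with a median of -0.57. On the dye-swapped VIN7 C it was 21 of 47 (44.7% against 48.7%), with a median of -0.079. The 3 arrays thus placed the median member below 0, further where the array was wider (SD over all ORFs of 0.79, 1.71 and 0.39).

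The W27 arrays did not give 1 picture. On W27 A, 33 of 45 members were above 0 (73.3%, against 47.1% of all ORFs), and their median was 1.68 where that of all ORFs was -0.11. On W27 B, 16 of 45 were above 0 (35.6% against 47.6%) and the median was -0.33. On W27 C, 12 of 39 were above 0 (30.8% against 53.2%) and the median was -0.37. W27 A stood apart for the members. It had 28 at least 2-fold higher at 12°C (62.2%, against 23.3% of all ORFs) and 4 at least 2-fold lower (8.89% against 26.7%). Array B had 4 higher (8.89% against 12.8%) and 10 lower (22.2% against 16.2%), and array C had 3 higher (7.69% against 16.5%) and 9 lower (23.1% against 13.2%).

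**Figure D1:**
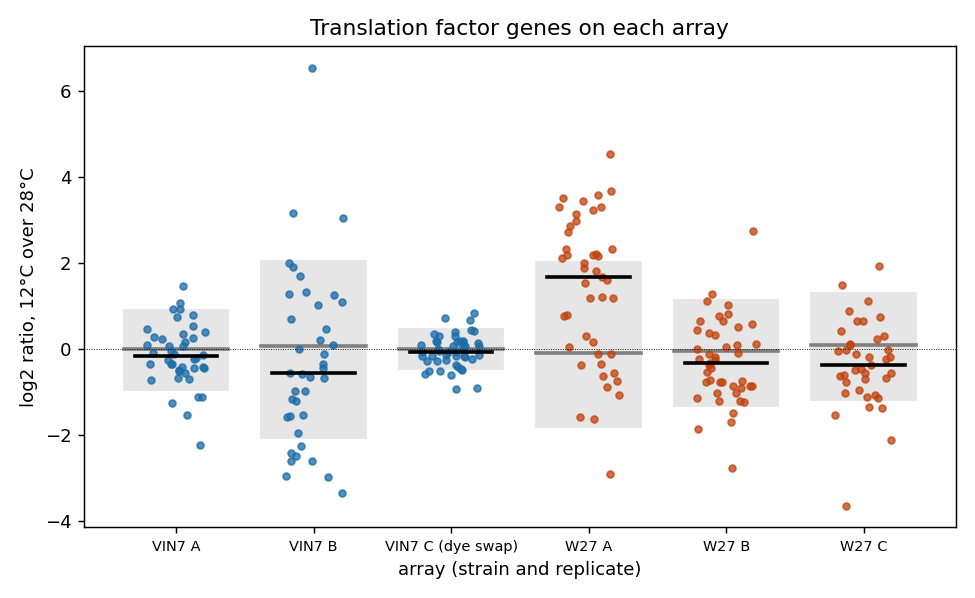
Log2 ratio of 12°C over 28°C (y axis) of each translation factor gene (points) on each of the 6 arrays (x axis, VIN7 blue, W27 red). Black bars are the medians of the members, grey bars the medians of all ORFs and grey boxes the 10th to 90th percentile of all ORFs. The median member was at 1.68 on W27 A and between -0.57 and -0.079 on the other 5 arrays.

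Over members, which are not independent replicates and share each array's labelling and centring, W27 B and W27 C correlated closely (Pearson r = 0.82, n = 39 members) and W27 A was unrelated to either (r = -0.031 with B, n = 43, and 0.059 with C, n = 39). VIN7 A resembled W27 B (r = 0.66, n = 42), W27 C (r = 0.68, n = 39) and the dye-swapped VIN7 C (r = 0.66, n = 42). Over all ORFs the same pairs gave r = 0.66, 0.61 and 0.37, and W27 B with W27 C gave 0.79, so the likeness of VIN7 A to the W27 arrays B and C held for the whole table. W27 A correlated below 0 with every other array over all ORFs, at -0.24, -0.10 and -0.27 with VIN7 A, B and C and at -0.14 and -0.19 with W27 B and C. No r was below -0.3, and each array was kept in its deposited direction. Whether dyes or samples were exchanged on W27 A cannot be settled from the deposited ratios, so each W27 mean that includes it carries that doubt, and values without it are given beside those it moves.

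**Figure D2:**
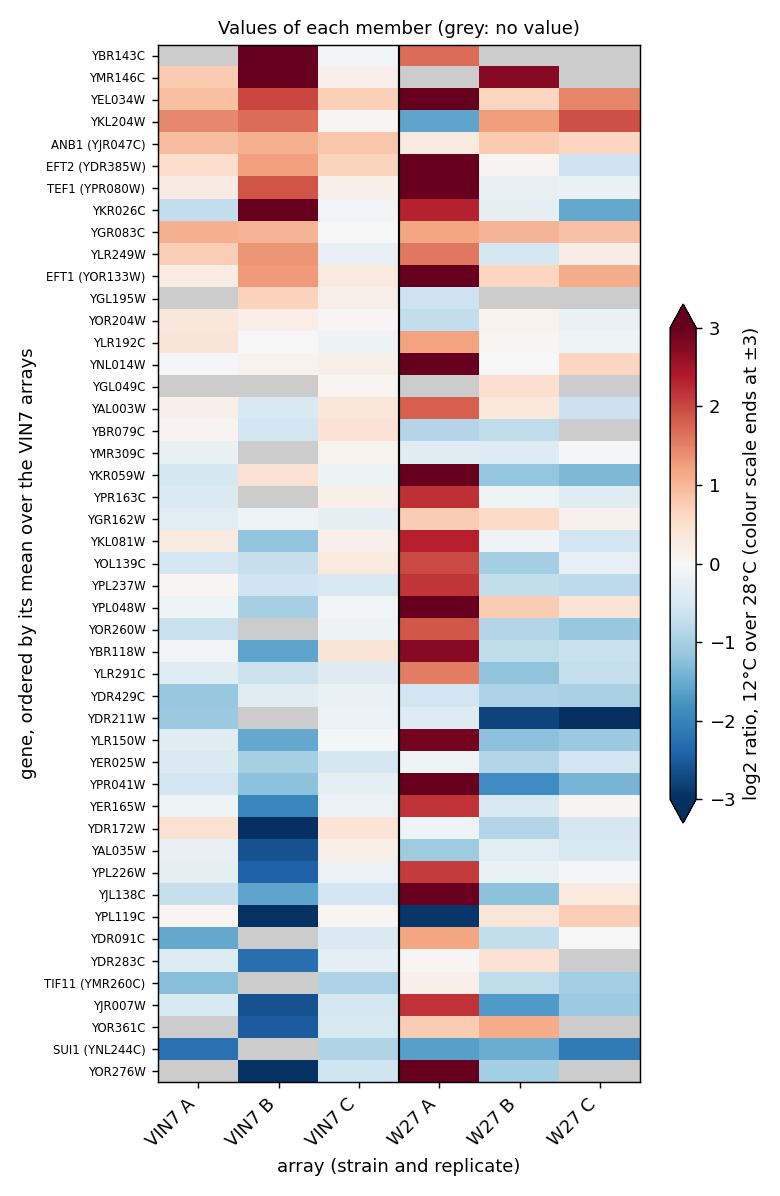
Log2 ratio of 12°C over 28°C (colour) of the 47 members with a row (y axis, ordered by the mean over the VIN7 arrays) on each array (x axis), with missing values in grey. *SUI1* and YDR429C were lower on each array that measured them, *ANB1*, *EFT1* and YEL034W were higher on all 6, and the W27 A column is red for 33 of 45 members.

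In VIN7 the mean over the arrays ran from -1.78 to 3.22 among the 46 members with at least 2 values, with a median of -0.31 beside -0.025 over the 5100 ORFs tested. None of the 46 passed a false discovery rate of 5% by limma (background 0.0% of ORFs, members' adjusted p between 0.612 and 0.988). At an unadjusted p under 0.05 there were 6 members (13.0%, background 5.47%), and with array weights limma again called 0 of 46. *SUI1*, *TIF11* and YJL138C were the 3 with negative means (background 2.24%), and *ANB1*, *EFT2* and YEL034W the 3 with positive means (background 3.24%). *SUI1*, *TIF11* and *ANB1* are in the study's own list for VIN7, which was drawn from these arrays, so their place here is no independent evidence. The median log2 ratio reached 2-fold for 3 members higher at 12°C (background 5.71%) and 4 lower (background 4.1%), of 46.

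In VIN7 all 3 arrays gave the same direction for 20 of the 35 members with 3 values (57.1%, background 40.6%). Of these, 8 were higher at 12°C (22.9%, background 24.4%) and 12 were lower (34.3%, background 16.2%). With the sign of the dye-swapped VIN7 C turned, 2 were higher (background 10.8%) and 3 lower (background 10.7%), so the count rests on the deposited direction of that array.

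*SUI1* (YNL244C, chromosome XIV) encodes eIF1, which keeps the scanning ribosome from starting at the wrong codon. Its log2 ratio was -2.23 on VIN7 A and -0.91 on VIN7 C, with no value on VIN7 B. On the W27 arrays it was -1.63, -1.50 and -2.12. All 5 values were thus below 0, and the W27 values lay within the range of the VIN7 pair, W27 A included. The mean was -1.57 ± 0.93 (SD, n = 2) in VIN7 and -1.75 ± 0.33 (SD, n = 3) in W27, and by limma the adjusted p was 0.612 and 0.661. The VIN7 mean moved to -0.66 with VIN7 C turned and to -2.83 with arrays scaled to a common spread. Without W27 A the W27 mean was -1.81 and the adjusted p by limma 0.00111, within a range of 1.02e-04 to 1 over the W27 settings. The W27 minus VIN7 difference was -0.18 with a standard error of 0.66 (limma adjusted p = 0.967).

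*TIF11* (YMR260C, chromosome XIII) encodes eIF1A, the partner of eIF1 on the small subunit. It was at -1.27 on VIN7 A and -0.94 on VIN7 C, and VIN7 B had no value. On W27 it was at 0.15, -0.77 and -1.03 on A, B and C. Only W27 A put it above 0, and the W27 C value lay between those of VIN7. Its mean was -1.10 ± 0.24 (SD, n = 2) in VIN7 and -0.55 ± 0.62 (SD, n = 3) in W27. The VIN7 mean moved to -0.17 with VIN7 C turned and to -2.17 with arrays scaled to a common spread. The adjusted p by limma was 0.612 in VIN7 and 0.766 in W27, and 0.0206 in W27 without array A, where the mean was -0.90.

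*ANB1* (YJR047C, chromosome X) encodes the form of eIF5A that yeast makes when oxygen is short. It was at 0.92, 1.08 and 0.83 on VIN7 A, B and C. In W27 it was at 0.30, 0.80 and 0.63. All 6 arrays put it above 0, the spread between arrays was small, and each W27 value was below each VIN7 value. The mean was 0.94 ± 0.12 (SD, n = 3) in VIN7 and 0.58 ± 0.25 (SD, n = 3) in W27, with adjusted p-values by limma of 0.612 and 0.725. The VIN7 mean was 0.39 with VIN7 C turned and 1.45 with arrays scaled to a common spread. The W27 minus VIN7 difference of -0.36 (standard error 0.48) did not pass 5% (limma adjusted p = 0.905), and with the sign of VIN7 C turned it was 0.19.

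*EFT1* (YOR133W, chromosome XV) and *EFT2* (YDR385W, chromosome IV) are near-identical copies that encode the same protein, eEF2, which moves the ribosome along the mRNA. Their spots share labelled cDNA and are not separate measurements. In VIN7, *EFT1* was at 0.22, 1.28 and 0.28 and *EFT2* at 0.53, 1.24 and 0.67. In W27, *EFT1* was at 3.43, 0.65 and 1.11. *EFT2* in W27 was at 3.51, 0.089 and -0.61. Both were above 0 on every VIN7 array, and W27 A gave by far the highest value of each. *EFT2* minus *EFT1* lay between -0.036 and 0.39 on the VIN7 arrays and W27 A, but fell to -0.56 and -1.72 on arrays B and C of W27, so near-identical spots can differ by over 2-fold on 1 array. The means were 0.59 ± 0.59 for *EFT1* and 0.82 ± 0.38 for *EFT2* in VIN7 (SD, n = 3), and 1.73 ± 1.49 and 1.00 ± 2.20 in W27. The adjusted p by limma was 0.612 for both in VIN7, and 0.661 for *EFT1* and 0.781 for *EFT2* in W27. Without W27 A the W27 mean of *EFT1* was 0.88 (limma adjusted p = 0.0254) and that of *EFT2* was -0.26 (0.484).

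*TEF1* (YPR080W, chromosome XVI) encodes eEF1A, which carries aminoacyl-tRNA to the ribosome. It was at 0.25, 1.89 and 0.16 in VIN7 and at 3.66, -0.24 and -0.20 in W27. VIN7 B and W27 A gave the 2 high values, and W27 B and C were just below 0. The mean was 0.77 ± 0.98 (SD, n = 3) in VIN7 and 1.07 ± 2.24 (SD, n = 3) in W27, with adjusted p-values by limma of 0.612 and 0.770. Without W27 A the W27 mean was -0.22, on the other side of 0, and without VIN7 B the VIN7 means of *TEF1* and *EFT1* were 0.20 and 0.25. The plan paired *TEF1* with a duplicate gene, *TEF2*, whose name was not tied to an ORF identifier here. Its spot may thus be among the members given by identifier only. Whether the 2 spots differ was therefore not examined, and the values above do not stand for eEF1A as a whole.

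**Figure D3:**
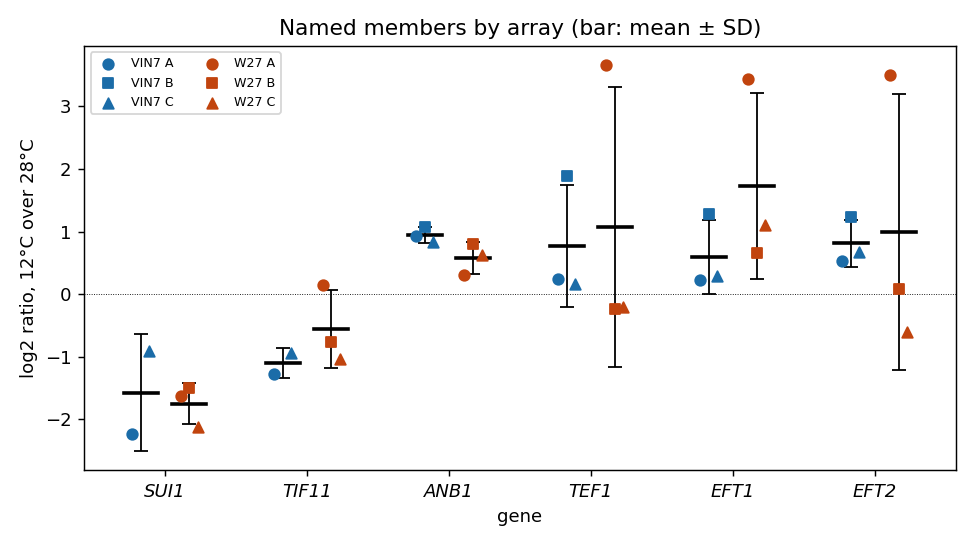
Log2 ratio of 12°C over 28°C (y axis) of the 6 named members (x axis) on the VIN7 (blue) and W27 (red) arrays, with replicate A as circles, B as squares and C as triangles. Black bars are means with SD over the arrays with a value. *SUI1* was below 0 on the 5 arrays that measured it, and *ANB1* and *EFT1* were above 0 on all 6. *TEF1*, *EFT1* and *EFT2* were between 3.43 and 3.66 on W27 A and between -0.61 and 1.11 on W27 B and C.

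Among members without a name here, YEL034W and YMR146C had the highest means of those above 0 on all 3 VIN7 arrays. YEL034W was at 0.91, 2.00 and 0.71 in VIN7 and at 3.30, 0.65 and 1.47 in W27. It was thus above 0 on all 6 arrays, with means of 1.21 ± 0.69 (SD, n = 3) in VIN7 and 1.81 ± 1.35 (SD, n = 3) in W27 (limma adjusted p = 0.612 and 0.661). YMR146C was at 0.78, 3.16 and 0.15 in VIN7, with most of its mean from VIN7 B, and had 1 value in W27, 2.73 on array B. The lowest means of those below 0 on all 3 VIN7 arrays were those of YJR007W (-0.46, -2.61 and -0.52) and YDR283C (-0.42, -2.27 and -0.27), where VIN7 B again gave the extreme value. In W27, YJR007W read 2.17 on array A but -1.71 and -1.08 on arrays B and C.

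In W27 the mean over the arrays ran from -2.27 to 1.90 among the 43 members with at least 2 values, with a median of 0.35 beside -0.027 over the 4894 ORFs tested. By limma none of the 43 passed 5% (background 0.0%, members' adjusted p between 0.661 and 0.994), and 5 had an unadjusted p under 0.05 (11.6%, background 7.27%), 3 higher (background 3.58%) and 2 lower (background 3.7%). The sign of the median rested on 1 array. Without W27 A it was -0.33, beside 0.0028 over all ORFs, and with that array's sign turned it was -0.71. By the median over the arrays, 5 members were at least 2-fold higher (background 10.3%) and 6 at least 2-fold lower (background 10.8%). All 3 arrays gave the same direction for 13 of 39 members (33.3%, background 31.9%), 6 higher (background 13.0%) and 7 lower (background 18.8%).

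The spread between the W27 arrays was larger for the translation factors than for the table as a whole. Their SD over the arrays had a median of 1.41 in W27, against 0.80 over all ORFs, whereas in VIN7 it was 0.60 against 0.55. Of the 39 members with 3 W27 values, 33 were higher on W27 A than their mean on B and C, against 47.5% of all ORFs, and the median gap was 2.35 against -0.14. Above 0 on A and below 0 on both B and C were 16 of the 39 (background 21.9%), and the reverse held for 2 (background 24.7%). W27 B and C themselves differed by a median of 0.38 for members and for all ORFs alike.

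Without W27 A, limma called 16 of 39 members (41.0%) at a false discovery rate of 5%, beside 39.1% of all 3938 ORFs tested, so the share of members called was near the background. The split was uneven. Lower at 12°C were 12 (30.8%, background 19.6%), with means of W27 B and C between -3.21 and -0.72, and higher were 4 (10.3%, background 19.5%), with means between 0.88 and 1.59. *SUI1* and *TIF11* were among those lower and *EFT1* and YEL034W among those higher, whereas *ANB1* was at 0.72 (limma adjusted p = 0.0501) and *TEF1* and *EFT2* did not pass. Of the 12 that were lower, 9 were above 0 on W27 A, with a median there of 2.01. All 12 had a mean below 0 in VIN7 (median -0.60), as did 82.4% of all ORFs called lower, and all 4 that were higher had a mean above 0 there (median 0.88), as did 84.1% of all ORFs called higher. With arrays weighted by their estimated precision, limma called 15 of 43 (34.9%, background 35.6%), of which 5 were higher (background 16.8%) and 10 lower (background 18.8%).

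**Figure D4:**
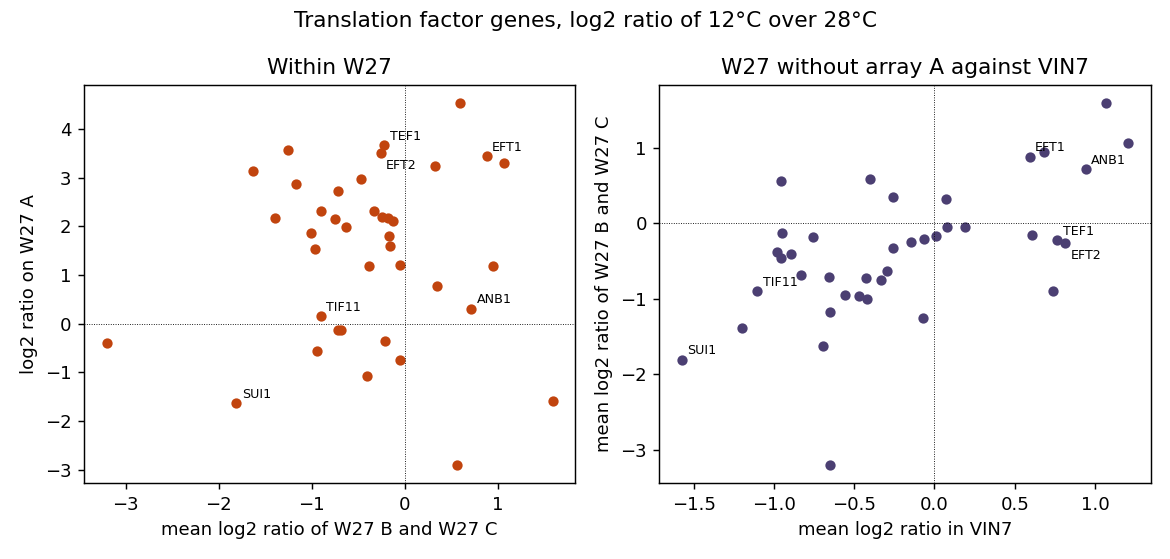
Left, the log2 ratio of each member on W27 A (y axis) against its mean on W27 B and C (x axis), for 39 members. Right, the mean of W27 B and C (y axis) against the mean over the VIN7 arrays (x axis) for the 39 members with at least 2 VIN7 values. On both axes 23 were below 0 (background 35.3%) and 6 above 0 (background 32.1%). The same sign was thus seen for 29 of 39, beside 67.4% of all 3857 ORFs.

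The lowest means of members below 0 on all 3 W27 arrays and without a name here were those of YDR211W and YDR429C. YDR211W was at -0.39, -2.77 and -3.65 on W27 A, B and C and at -1.12 and -0.18 on VIN7 A and C. Its mean in W27 was -2.27 ± 1.68 (SD, n = 3, limma adjusted p = 0.661), and without W27 A it was -3.21 (limma adjusted p = 3.88e-04), the lowest mean among members. YDR429C was at -0.57, -0.92 and -0.97 in W27 and at -1.13, -0.36 and -0.19 in VIN7, below 0 on each of the 6 arrays. YPL048W had the highest mean of those above 0 on all 3 W27 arrays, at 4.53, 0.77 and 0.41, and W27 A carried most of it.

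All 6 arrays had a value for 32 members. Of these, 3 were above 0 on all 6 arrays (*ANB1*, *EFT1* and YEL034W, 9.38%, background 3.59%), and 2 were below 0 on all 6 (YDR429C and YER025W, 6.25%, background 3.52%), so 5 in all (15.6%, background 7.11%). *SUI1* was not among the 32, having no value on VIN7 B. These counts are small. Both forms of eIF5A are among the members, and only *ANB1* was matched by name. The other form is given by ORF identifier only, so it may be counted here beside *ANB1*. Spots of duplicate genes may share labelled cDNA, so the members counted may not all be separate measurements.

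Between the strains, the W27 minus VIN7 difference had a median of 0.48 over the 43 members tested, beside -0.020 over the 4670 ORFs tested. By limma no member differed at 5% (background 0.0%, members' adjusted p between 0.893 and 0.977), and 1 member, YOR361C, had an unadjusted p under 0.05 (2.33%, background 3.15%), with a higher ratio in W27 (background 1.31%). With array weights limma again called 0 of 43 (background 0.792%). The standard errors of the members' differences ran from 0.48 to 1.58, so a missed threshold does not show that the strains were alike. The direction of the median was set by W27 A. Without it, the median difference was -0.15 over 39 members, beside 0.046 over all ORFs. The arrays of the strains did not overlap for 6 of 43 members (background 18.8%), 4 higher (background 8.99%) and 2 lower (background 9.81%) in W27. Without W27 A this held for 12 of 39 (30.8%, background 37.5%), 3 higher (background 17.8%) and 9 lower (background 19.7%). Opposite signs on every array with a value were seen for 4 of 43 members (9.30%, background 5.48%), all 4 above 0 in W27 (background 2.42%) and 0 above 0 in VIN7 (background 3.06%).

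The *S. kudriavzevii* genome of each hybrid lacks some chromosomes, which the study gives as III and parts of IV and VII in VIN7 and parts of IV, IX and XV in W27. By the chromosome letter of the ORF name, 9 members on III, IV or VII had a median VIN7 mean of -0.56, against -0.29 for the other 37. In W27, 12 members on IV, IX or XV had a median of 0.19, against 0.43 for the other 31. Both W27 medians include W27 A, and these groups were not compared without it. Leaving that array out put the W27 median over all members tested at -0.33. These medians are a description with no test, and which of these genes lie in the lost parts was not examined.

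A further 36 genes of translation were fixed by ORF identifier from general knowledge, among them regulators of Gcn2, enzymes that modify eIF5A and eEF2, ribosome rescue factors and mitochondrial translation factors, and 34 of them had a row. By limma 0 of 34 passed 5% in VIN7 and 0 of 33 in W27. At an unadjusted p under 0.05 there were 2 in each (background 5.47% in VIN7 and 7.27% in W27). Without W27 A, 5 of 30 were called higher (background 19.5%) and 9 lower (background 19.6%), so more were lower than higher in this list as well. On W27 A, 18 of 34 were above 0, with a median of 0.068, beside 33 of 45 and 1.68 for the translation factors on the same array. In VIN7 these other genes also lay below 0, with 14 of 34 means above 0 and a median of means of -0.25 beside -0.31. Their medians were -0.31, 0.026 and -0.11 on VIN7 A, B and C, further below 0 than the translation factors on A and C but not on B.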

How the data were processed

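Background was subtracted by the authors in GenePix, and Acuity was used to normalize each array and filter spots by flag, with print tip effects adjusted by hand. The Methods word the filter as taking out spots without a flag, so which spots it dropped is not clear. They deposited 1 log2 ratio of 12°C over 28°C per ORF and array. The centring is described only as a log2 ratio value of 1, array medians lie near 0 and no common scale was set, so scale differs between arrays and scanner intensities were not used here. Missing values are blank, 0 columns were left unused, and the number of arrays limits the precision.

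The ratios were not renormalized. The mean of each strain was tested against 0, and W27 minus VIN7 over the 6 arrays, with limma 3.58.1 in R 4.3.3 on the whole table, for ORFs with at least 2 values per strain, with Benjamini-Hochberg adjustment over all ORFs. All adjusted p-values printed come from limma. The models were tested on simulated data. The 2-fold median cut-off follows the Methods, and the SAM test that the study names elsewhere was not run. Members and lists were chosen with earlier results of these data known. The planned rule named the members of the supplementary list and those with the same sign on all 3 arrays or a 2-fold median in a strain (31 members in all). It also named the extremes of each role group and both members of each duplicate pair. Since no gene table was used here, it was narrowed after the data were seen to the 6 named genes and, per strain and direction, up to 2 other members with the same sign on all 3 arrays and the most extreme mean. Members named beside these were chosen after their values were seen. Groups by role, planned by gene symbol, were not used, since only 6 symbols could be matched, and no sequences were used here. For the same reason the planned comparison of duplicate pairs was dropped, except for *EFT1* and *EFT2*. Alternatives were median centring, MAD scaling, complete values, a joint model, array weights, a dye term, a replicate block, mean against median, turning VIN7 C or W27 A, and leaving out each array. Same-direction counts with turned signs were added after seeing the data.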

Additional observations from a re-analysis of the deposited data

Results flagged for a closer look

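For 4 members every VIN7 array with a value was below 0 and every W27 array above 0 (9.30% of 43, background 2.42%), and for 0 members the reverse held (background 3.06%). YGR162W was at -0.35, -0.13 and -0.30 in VIN7 and at 0.77, 0.58 and 0.12 in W27, so that W27 exceeded VIN7 by 0.75 on average (standard error 0.48). W27 exceeded VIN7 by 2.31 for YPL048W (standard error 1.07), which became 0.99 when W27 A was left out. YOR361C lacked VIN7 A and W27 C. Its VIN7 values were -2.49 and -0.49 and its W27 values 0.77 and 1.11, a difference of 2.42 (standard error 0.88). YDR283C, with no value on W27 C, differed by 1.22 (standard error 0.79), and its value on W27 A was 0.036. By limma each of the 4 differences had an adjusted p of 0.893, so none passed 5%. With the sign of W27 A turned, YGR162W and YPL048W were at means of -0.023 and -1.12 in W27.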

How the results depend on the processing

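The results in W27 turned on array A. Members called by limma at 5% were 0 with all arrays, 0 to 16 when 1 array was left out and 15 with array weights. In VIN7 and between the strains they were 0 under every alternative run. Members at least 2-fold higher in VIN7 numbered 3, and 5 with MAD scaling and 0 to 7 when 1 array was left out. Those lower numbered 4, and 8 with MAD scaling, 0 with complete values, 2 with VIN7 C turned and 2 to 10 when 1 array was left out. In W27 the 5 higher became 3 with MAD scaling, 1 with W27 A turned and 2 to 13 when 1 array was left out. The 6 lower became 12 with W27 A turned, 2 by the mean and 3 to 7 when 1 array was left out.

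For the named members, 216 of 252 alternative limma values kept their direction and side of the threshold, 12 newly passed it and 24 changed direction. In W27, *TEF1* was at -1.37 with A turned, -0.11 with array weights, -0.20 by the median, and -0.22 (without A) to 1.73 when 1 array was left out. *EFT1* was at -0.56 with A turned, and *EFT2* at -1.34 with A turned, -0.094 with array weights, and -0.26 (without A) to 1.80 when 1 array was left out. YPL048W was at -1.12 and YEL034W at -0.39 with A turned. The W27 minus VIN7 difference of *TIF11* was -0.39 with VIN7 C turned. That of *SUI1* was 0.91 with W27 A turned, 0.48 with a dye term, 1.24 with MAD scaling, and -0.305 to 0.009 (without W27 C) when 1 array was left out. That of *TEF1* was -2.13 with W27 A turned, -0.42 with array weights, -0.029 with MAD scaling, and -0.99 (without W27 A) to 0.96 when 1 array was left out. That of *EFT1* was -1.15 with W27 A turned. That of *EFT2* was -2.16 with W27 A turned, -0.74 with array weights, -0.55 with MAD scaling, and -1.08 (without W27 A) to 0.98 when 1 array was left out. That of *ANB1* was 0.19 with VIN7 C turned. The cause was not tested. With the replicate block, 0 members were called. Deviations of same-lettered arrays correlated at -0.11, 0.11 and -0.26 (A, B and C), so the letters were not taken as a pairing.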
